A study of Mus musculus with 18 samples.

Results

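The imprinted growth genes are 10 genes that are transcribed mainly from a single parental copy and that set the size of the fetus and its organs. They were taken by name: the growth factor gene Igf2 and its neighbour H19, the receptor gene Igf2r, the cell cycle inhibitor gene Cdkn1c, the neighbours Dlk1 and Meg3, and Peg3, Grb10, Plagl1, and Ndn. All 10 were found by gene identifier among the 78239 genes counted. The question was whether a low-protein diet of the dam, given through gestation and lactation, left a difference in these genes in the kidney of the young adult offspring, and whether the sexes differed.

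RNA was measured in 18 kidneys, 1 per mouse, from wild-type outbred CD-1 mice aged 6 wk. The dams received a diet with 8% protein (LP) or 18% protein (NP), and all offspring received the NP diet from weaning. The groups were 5 LP and 5 NP males, and 5 LP and 3 NP females. Every mouse, in each group, had been given horse spleen cationic ferritin for imaging and was perfused with saline, and RNA came from a piece of the left kidney. The male kidneys were collected sooner after the last ferritin injection than the female kidneys, so that sex and this interval cannot be told apart. The mice came from a few litters and the labels do not give the litter of a mouse, so that the p-values treat littermates as independent.

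In imprinting, DNA methylation laid down in the egg or the sperm marks control regions, and these marks leave a gene active mainly on the copy from a single parent. Many genes active on the paternal copy favour growth, and many active on the maternal copy restrain it. Igf2r is a well-known counterweight of Igf2, since the receptor carries IGF2 protein to the lysosome for breakdown. Most of these genes are strongly expressed in the fetal kidney and are turned down after birth. Among the members, Igf2, Dlk1, Peg3, Plagl1, and Ndn are known to be expressed from the paternal copy, and H19, Igf2r, Cdkn1c, Meg3, and, in most tissues, Grb10 from the maternal copy. The libraries hold reads per gene and not per parental copy, so that allelic expression was not measured.

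The libraries held 14050486 to 23562411 reads on genes, and 28.6% to 36.1% of reads fell on no single gene. In a clustering of all libraries on 12665 genes, LP female 1, LP female 2, and NP female 3 separated first from the other 15. LP male 2 held brain transcripts: the summed level of 8 neuron genes was 108 CPM (reads scaled to 1000000 per library), against at most 2.8 CPM in the other libraries, and the synaptic gene Snap25 had 317 reads there and at most 1 read elsewhere. Adipocyte markers summed to 41.9 to 270 CPM in 6 libraries and to at most 13.7 CPM in the other 12. The labelled tissue was borne out by its markers, with summed proximal tubule genes at 6930 to 13200 CPM in every library. Of the adrenal cortex list 6 of 8 genes had a read, with sums of 0.967 to 5.01 CPM, and Cyp11b1 and Cyp11b2 had 0 reads in every library. Of the adrenal medulla list 4 of 6 had a read, with sums of 0 to 5.38 CPM, highest in LP male 2, and Th and Dbh had 0 reads in every library. All 5 genes of the nephron progenitor list had reads, with sums of 5.08 to 16.5 CPM, mostly from Meox1 and Cited1, and Six2 had 2 reads in LP male 5 and 0 elsewhere.

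The members fell into a group that was well counted and a group near the limit of detection. Igf2r, Cdkn1c, Peg3, Grb10, and Plagl1 had at least 10 reads in all 18 libraries and were tested in every comparison. Ndn had at least 10 reads in 17 libraries and was tested in females alone. Igf2, H19, Dlk1, and Meg3 did not pass that filter in any comparison. A gene with 0 reads may still have a level of up to 3 reads, which is 0.127 to 0.214 CPM at these depths, counting error only.

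Per kilobase of exon, Igf2r was the highest member in males, at 20.8 ± 3.56 RPKM (CPM divided by the exon length in kilobases; mean ± SD, n = 10). Cdkn1c at 3.96 ± 0.811 RPKM and Grb10 at 2.54 ± 0.428 RPKM came next, with overlapping ranges, although Cdkn1c was the higher of the pair in 10 of 10 males. Plagl1 at 1.09 ± 0.278 RPKM, Peg3 at 0.796 ± 0.273 RPKM, and Ndn at 0.645 ± 0.444 RPKM formed the middle of the order, all below the lowest Grb10 value, and each overlapped the next. The lowest members in males were Meg3 at 0.0776 ± 0.157 RPKM, Dlk1 at 0.013 ± 0.0232 RPKM, H19 at 0.0118 ± 0.0164 RPKM, and Igf2 at 0.00184 ± 0.00388 RPKM. Meg3 was at 0.522 RPKM in LP male 2, the library with brain transcripts, and at most 0.0689 RPKM in the other males. Most Dlk1 reads came from libraries with adipocyte markers, as given below. In females, Cdkn1c stood at 8.87 ± 2.44 RPKM and Igf2r at 7.52 ± 2.99 RPKM (n = 8), and Cdkn1c was the higher in 4 of 8 libraries. In both sexes the standing of Cdkn1c against these genes depends on how its reads were counted, as given below. Grb10 followed at 2.64 ± 0.461 RPKM, below the lowest Igf2r value, and then Plagl1 at 1.76 ± 0.321 RPKM, Peg3 at 1.3 ± 0.334 RPKM, and Ndn at 1.05 ± 0.263 RPKM, each overlapping the next. Igf2 was seventh in females, at 0.125 ± 0.153 RPKM, and it was the last in males. The female value pools the diets: Igf2 stood at 0.195 ± 0.158 RPKM in LP females (n = 5) and 0.00975 ± 0.0169 RPKM in NP females (n = 3). Its place among females thus rests on LP females and is no support for a sex difference. The exon length used for Igf2 includes the 65.5% of its bases that are shared with another gene, where reads were not counted.

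Igf2 and H19 lie side by side on chromosome 7 and share control elements. Igf2 (ENSMUSG00000048583.18, GRCm39 chr7:142204503-142220694, minus strand) encodes the fetal growth factor IGF2. In males it had 1 read in LP male 5, 1 read in NP male 2, and 0 reads in the other 8 libraries. In LP females 1 to 5 it had 3, 7, 28, 43, and 33 reads, and in NP females 1 to 3 it had 0, 3, and 0 reads. The highest values were thus in LP females 3, 4, and 5, which are the LP females outside the branch that separated first, and the lowest LP female was level with NP female 2 in reads. The difference in mean log2(CPM + 1) between LP and NP females was 0.94, with an exact two-sided permutation p = 0.0536, where the smallest p that 5 against 3 mice allows is 0.0179. With looser filters Igf2 entered the edgeR fit, with an adjusted p = 0.906 with filterByExpr (unadjusted 0.00977) and 0.729 with no filter (unadjusted 0.0012). It passed filterByExpr only through LP females 3, 4, and 5, where it was high, so that the p-value of that fit is no support for a difference. Of the exon bases of Igf2, 65.5% are shared with another annotated gene, mostly with Gm49394 on the same strand, and reads there were not counted, so that these values understate Igf2.

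H19 (ENSMUSG00000000031.20, GRCm39 chr7:142129262-142133957, minus strand) is a long noncoding RNA of the maternal copy. It had 20 reads in all 18 libraries. The LP females had 3, 0, 2, 3, and 6 reads, while the 3 NP females had 0 reads each (exact two-sided permutation p = 0.107). Males had 4 reads over 5 LP libraries and 2 reads over 5 NP libraries (exact two-sided permutation p = 0.524). At this depth no diet difference in H19 was detectable in either sex.

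**Figure D1:**
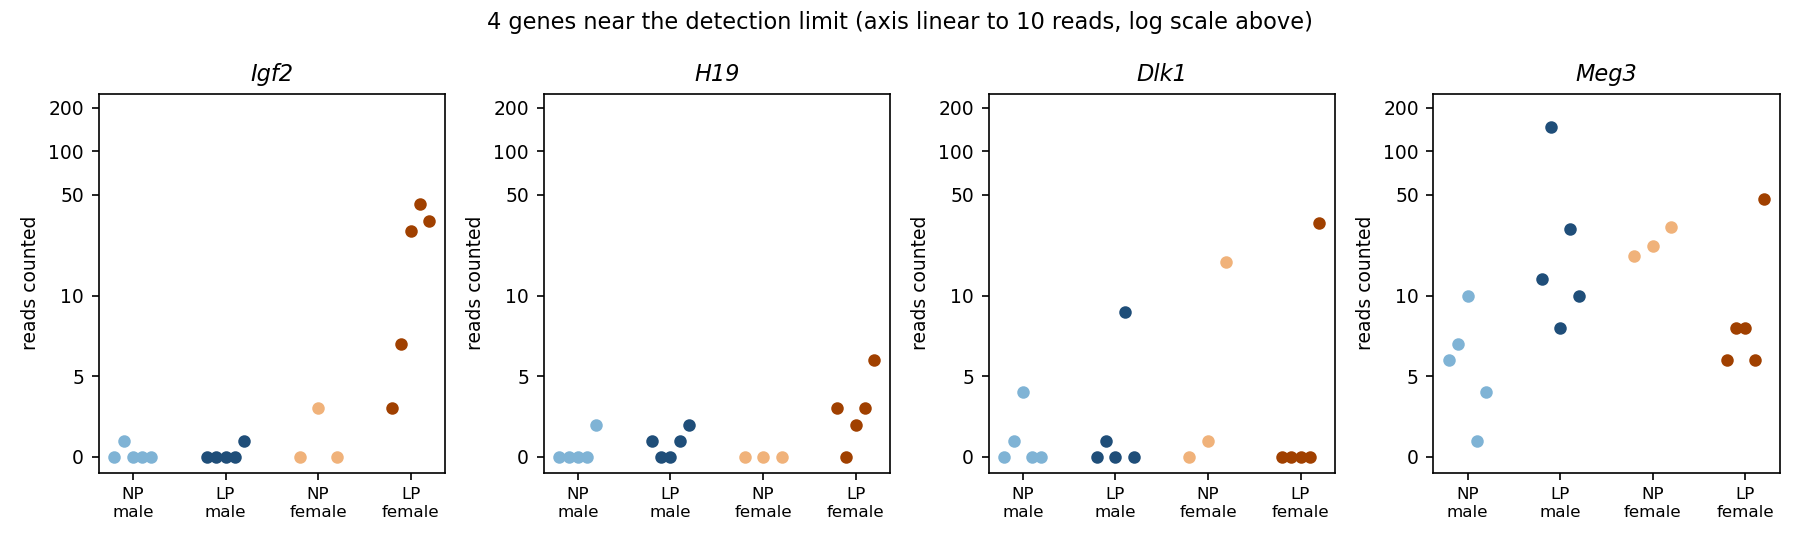
Reads counted for Igf2, H19, Dlk1, and Meg3 in each library (1 point per mouse, 5, 5, 3, and 5 mice per group from left to right), on an axis that is linear to 10 reads and logarithmic above. Igf2 has 28 to 43 reads in 3 LP females and at most 7 reads elsewhere, and Meg3 has 146 reads in LP male 2.

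Igf2r (ENSMUSG00000023830.15, GRCm39 chr17:12901293-12988614, minus strand) encodes the cation-independent mannose 6-phosphate receptor, which sorts lysosomal enzymes and clears IGF2. Reads normalised by size factors were 4131, 3123, 3201, 3640, and 2379 in LP males 1 to 5 and 3961, 3625, 3340, 4316, and 3195 in NP males 1 to 5. In females they were 698, 474, 1659, 1639, and 1552 for LP and 1157, 1397, and 671 for NP. Every male was above every female, with no overlap, as was the case for 8.27% of the 12665 genes tested. LP and NP mice overlapped within each sex. The 3 lowest values belonged to LP female 1, LP female 2, and NP female 3, the libraries that separated first.

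Cdkn1c (ENSMUSG00000037664.14, GRCm39 chr7:143012069-143014806, minus strand) encodes the cyclin-dependent kinase inhibitor p57Kip2, which holds podocytes of the mature glomerulus out of the cell cycle. Its normalised counts were 174, 207, 100, 128, and 184 in LP males and 157, 138, 146, 127, and 168 in NP males. LP females had 370, 230, 249, 329, and 264, and NP females had 417, 203, and 437. Females were the higher sex, although NP female 2 at 203 lay just below LP male 2 at 207.

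The way reads were counted matters for Cdkn1c. Of its exon bases, 29% are shared with Gm44732, a gene annotated on the opposite strand, and reads over the shared bases were assigned to neither gene. The count without strand held 4143 Cdkn1c reads over all libraries, and the sum of both stranded counts held 9668, from 1.89 to 2.73 times as many in a library. By that sum Cdkn1c stood at 8.04 ± 1.52 RPKM in males and 17.8 ± 4.67 RPKM in females, about double the level above in each sex. The lowest female value, 13.4 RPKM, was then above the highest female Igf2r value, 10.6 RPKM counted without strand. The lowest male value, 5.28 RPKM, was above the highest male Grb10 value, 3.13 RPKM counted without strand. Gm44732 had 0 to 3 reads per library without strand and 140 to 721 in the stranded sum. Since the libraries do not mark strand, reads from the shared bases cannot be given to either gene. The sum of both stranded counts for the other members was 1 to 1.2 times the count without strand.

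**Figure D2:**
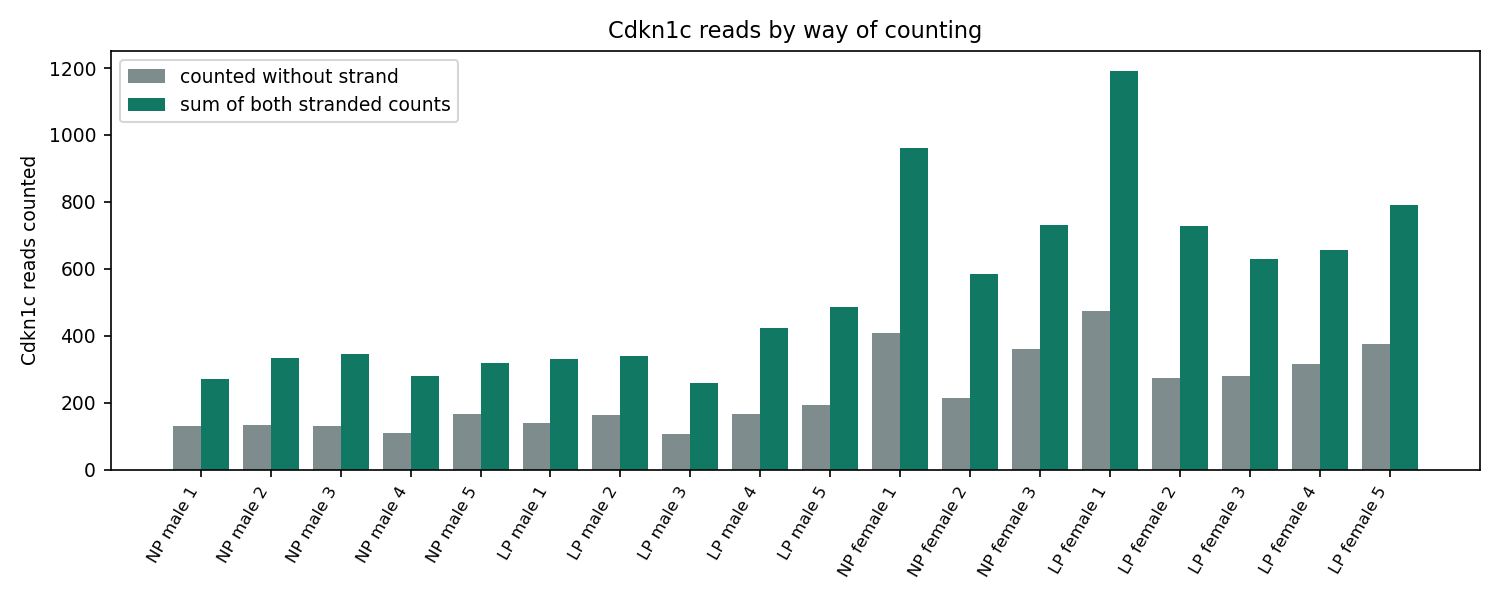
Cdkn1c reads in each library, counted without strand (grey) and as the sum of both stranded counts (green). The sum is 1.89 to 2.73 times the count without strand, and every female bar stands above every male bar of its colour.

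Dlk1 and Meg3 are neighbours on chromosome 12. Dlk1 (ENSMUSG00000040856.18, GRCm39 chr12:109418749-109429262, plus strand) encodes a membrane protein of the Delta family that is also known as a marker of preadipocytes. It had 32 reads in LP female 5, 17 in NP female 3, 9 in LP male 4, 4 in NP male 3, and 1 each in NP male 2, NP female 2, and LP male 2. The other 11 libraries had 0 reads. The first 6 of these are the 6 libraries with summed adipocyte markers over 40 CPM, which together held 64 of the 65 reads of Dlk1. In order, the adipocyte sums were 270 CPM, 200 CPM, 94.8 CPM, 53.3 CPM, 45.2 CPM, and 41.9 CPM. LP and NP did not differ detectably, with exact two-sided permutation p = 0.722 in males and p = 0.821 in females.

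Meg3 (ENSMUSG00000021268.20, GRCm39 chr12:109506877-109538165, plus strand) is a long noncoding RNA of the maternal copy. LP males had 13, 146, 8, 29, and 10 reads and NP males had 6, 7, 10, 1, and 4. LP females had 6, 8, 8, 6, and 47 reads and NP females had 19, 22, and 30. The difference in mean log2(CPM + 1) between LP and NP males was 0.94, with an exact two-sided permutation p = 0.0476, the only value under 0.05 among the 10 members in each sex. Without LP male 2, the library with brain transcripts, the difference was 0.41 and the exact permutation p = 0.0714. The p was also above 0.05 when any 1 of the NP males was left out, at 0.0556 to 0.151 by exact permutation, with differences of 0.86 to 1.01. Rian, a noncoding RNA that follows Meg3 on the same copy, had 85 reads in LP male 2 and at most 34 elsewhere, and Rasgrf1, an imprinted gene of the brain, had 57 reads there and at most 5 elsewhere. In females the difference was -0.64, with an exact two-sided permutation p = 0.125.

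**Figure D3:**
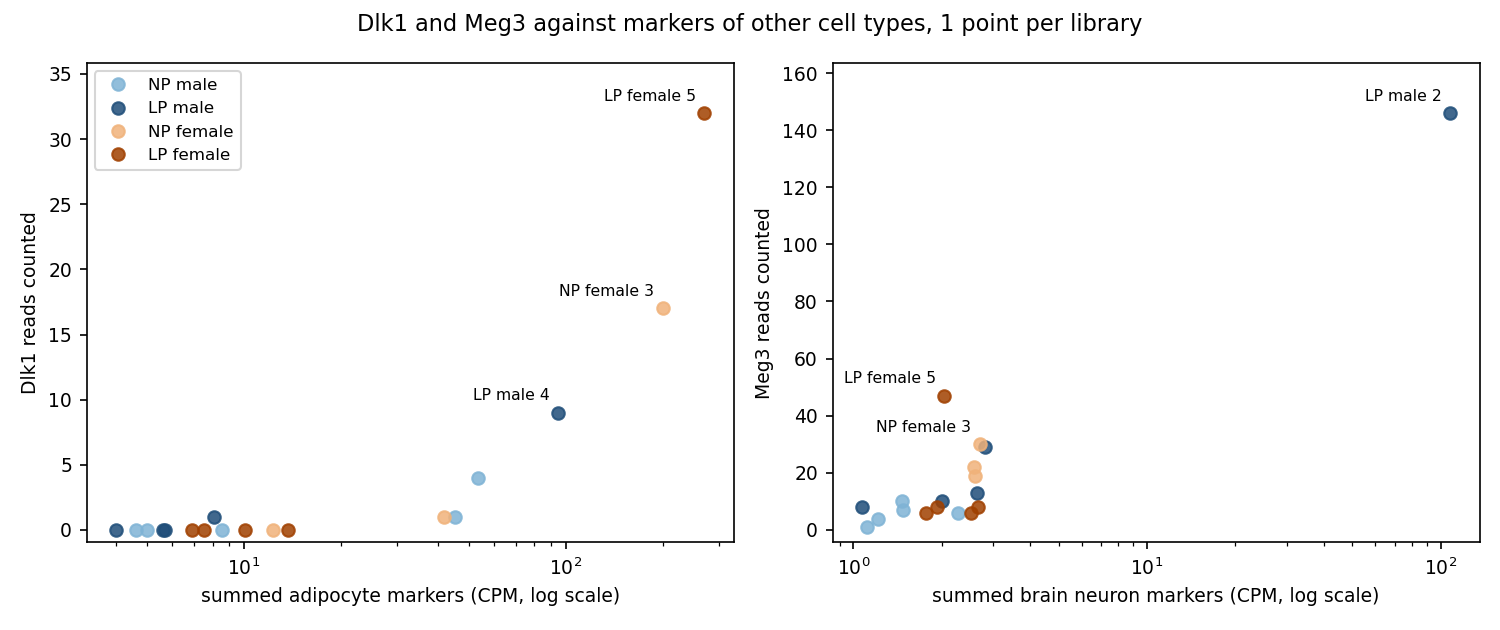
Reads counted for Dlk1 against the summed level of 7 adipocyte markers (left) and for Meg3 against the summed level of 8 brain neuron markers (right), both sums in CPM on a log scale, 1 point per library, coloured by group. Dlk1 is highest in the libraries with the highest adipocyte sums, and LP male 2 stands alone in Meg3 reads and in neuron markers.

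Grb10 (ENSMUSG00000020176.18, GRCm39 chr11:11880498-11988683, minus strand) encodes an adaptor protein that dampens signalling from the insulin and IGF1 receptors. It was the steadiest member: its normalised counts were 371 to 507 in LP males, 350 to 574 in NP males, 335 to 486 in LP females, and 367 to 518 in NP females. The 4 groups overlapped throughout.

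Plagl1 (ENSMUSG00000019817.19, GRCm39 chr10:12936248-13007438, plus strand) encodes a zinc finger transcription factor that regulates other imprinted genes. It had 191, 178, 131, 229, and 154 normalised counts in LP males and 111, 212, 145, 166, and 140 in NP males. In LP females it had 195, 203, 311, 258, and 289, and in NP females 270, 255, and 186. LP and NP overlapped in each sex, and the highest males reached into the range of the females.

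Peg3 (ENSMUSG00000002265.18, GRCm39 chr7:6706882-6733468, minus strand) encodes a large zinc finger protein. LP males had 303, 285, 201, 217, and 147 normalised counts, and NP males had 161, 165, 192, 196, and 77. LP females had 400, 273, 330, 211, and 317, and NP females had 218, 315, and 230. In males 4 of 5 LP values were above the highest NP value, and LP male 5 was below 4 of the 5 NP values.

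Ndn (ENSMUSG00000033585.6, GRCm39 chr7:61995473-62000010, plus strand) encodes necdin, a growth suppressor of the MAGE family. Its normalised counts ran from 17.1 to 97.7 in LP males, 5.84 to 40 in NP males, 46.1 to 75.1 in LP females, and 53.1 to 106 in NP females. LP males 2, 4, and 5 were above every NP male, and LP males 1 and 3 were not (exact two-sided permutation p = 0.143).

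**Figure D4:**
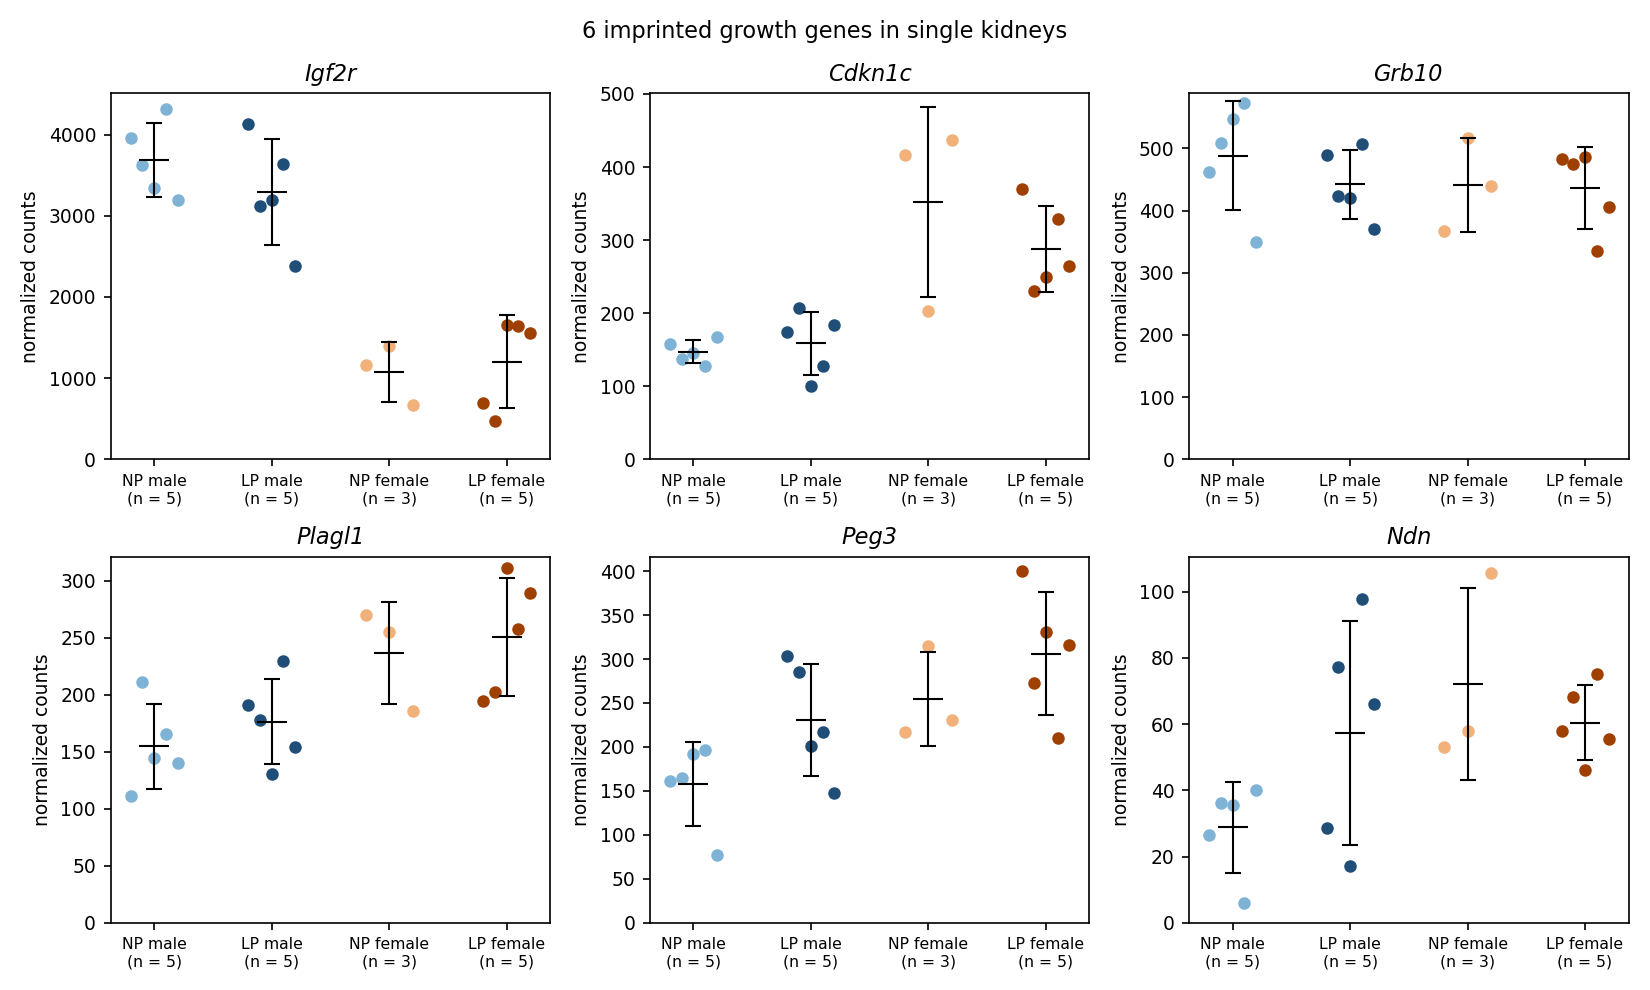
Normalised counts of the 6 better counted members in each mouse (points) with the group mean and SD (bars), for NP males, LP males, NP females, and LP females (n = 5, 5, 3, and 5). Igf2r separates the sexes without overlap, Cdkn1c, Plagl1, and Peg3 are higher on average in females, and LP and NP overlap in each panel.

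No member differed between LP and NP kidneys past the threshold. LP and NP mice overlapped in each of the 10 members in males and in females, while 0.675% of the genes tested in males and 2.96% of those tested in females had groups without overlap. In males, 0 of the 5 members tested had an adjusted p under 0.05 (edgeR's quasi-likelihood test with Benjamini-Hochberg adjustment over 13181 genes), against a background of 0.0379% of all genes tested, and DESeq2 also called 0 members. At an unadjusted p under 0.05 the count was 1 member, Peg3, against 3.84% of all genes. Its log2 fold change was 0.55 ± 0.25 (SE, LP minus NP, p = 0.0494, adjusted p = 1), and the exact two-sided permutation p on log2(CPM + 1) was 0.0873. The other tested members in males had log2 fold changes of -0.15 ± 0.14 for Igf2r, 0.11 ± 0.19 for Cdkn1c, -0.13 ± 0.14 for Grb10, and 0.20 ± 0.20 for Plagl1 (± SE). The median of the 5 members was 0.113, beside -0.00393 over all genes tested.

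In females, 0 of the 6 members tested had an adjusted p under 0.05 by edgeR, against 0% of 13510 genes, and DESeq2 called 0 members as well. None had an unadjusted p under 0.05 by edgeR, against 4.17% of all genes. The largest difference was that of Cdkn1c, with a log2 fold change of -0.28 ± 0.26 (SE, LP minus NP, adjusted p = 0.893). It depended on single mice, with -0.54 ± 0.21 without NP female 2 (edgeR adjusted p = 0.219), -0.12 without NP female 1, and -0.10 without NP female 3. Peg3 had 0.27 ± 0.24 and Ndn -0.24 ± 0.29, and Igf2r, Grb10, and Plagl1 lay between -0.01 and 0.16. The SE of Igf2r was 0.44 in females and 0.14 in males, so that a difference of the same size was less detectable in females.

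The diet effect did not differ detectably between the sexes. For the interaction, 0 of 5 members had an adjusted p under 0.05 by edgeR, against 0.0158% of 12665 genes. DESeq2 gave an adjusted p for Igf2r alone (0.983) and none for the other 4 members. None had an unadjusted p under 0.05 by edgeR, against 4.02% of all genes. The values, female minus male effect on the log2 scale, were 0.30 ± 0.43 for Igf2r, -0.41 ± 0.34 for Cdkn1c, -0.29 ± 0.37 for Peg3, 0.12 ± 0.23 for Grb10, and -0.12 ± 0.30 for Plagl1 (± SE).

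The sexes differed in 4 of the 5 members tested, against 38.7% of all genes. Igf2r was higher in males, as were 18.9% of genes, and Cdkn1c, Plagl1, and Peg3 were higher in females, as were 19.8% of genes (edgeR's quasi-likelihood test, adjusted p under 0.05). The log2 fold change, male minus female with equal weight to the diets, was 1.62 ± 0.23 for Igf2r (SE, n = 10 and 8, edgeR adjusted p = 2.95e-05). It was -1.06 ± 0.17 for Cdkn1c (edgeR adjusted p = 8.57e-05), -0.56 ± 0.15 for Plagl1 (edgeR adjusted p = 0.006), and -0.55 ± 0.18 for Peg3 (edgeR adjusted p = 0.0246). Grb10 had 0.08 ± 0.11 and did not pass the test. In bulk tissue, fewer cells of a type and less RNA per cell cannot be told apart.

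**Figure D5:**
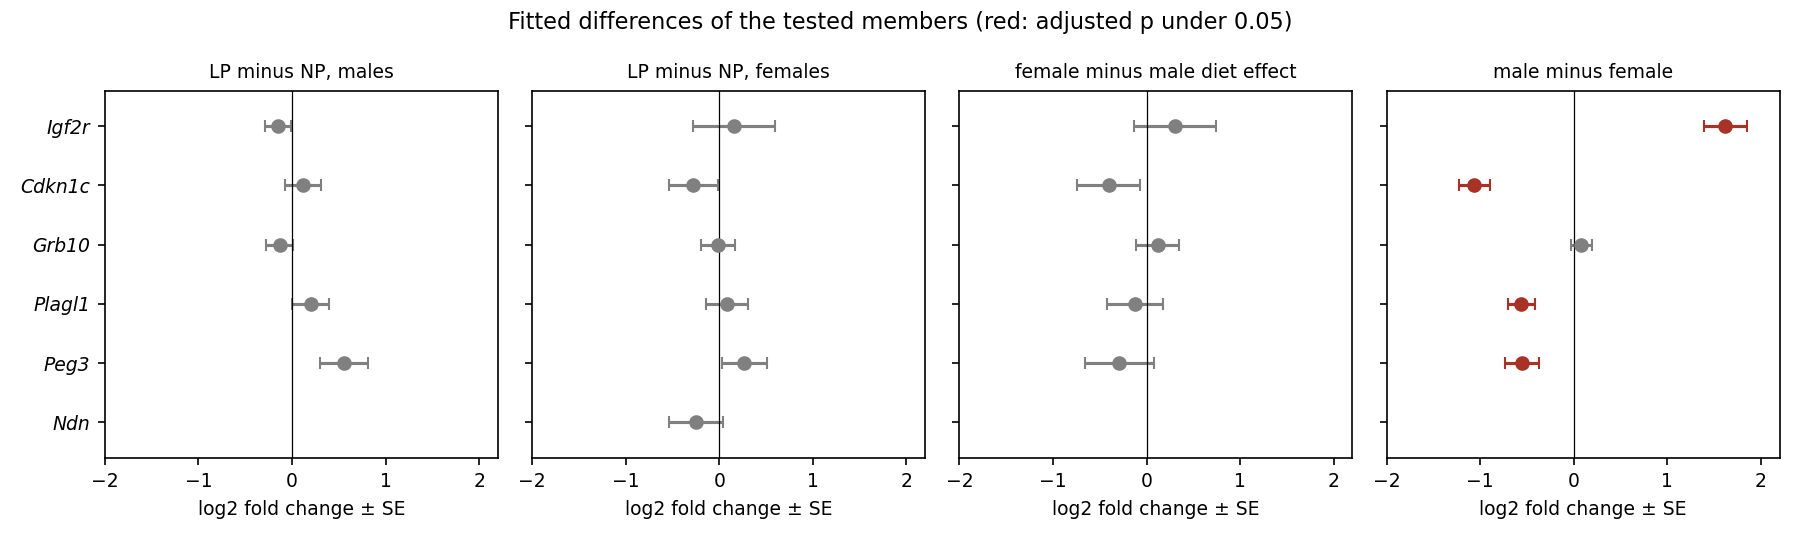
Log2 fold changes with their SE for the tested members in the 4 comparisons, red where the edgeR adjusted p is under 0.05. All points of the diet panels and of the interaction panel are grey, and in the sex panel Igf2r lies at 1.62 and Cdkn1c, Plagl1, and Peg3 lie at -1.06, -0.56, and -0.55.

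The sex difference was also examined within each diet. In NP mice alone, Igf2r (1.77 ± 0.35), Cdkn1c (-1.27 ± 0.25), and Plagl1 (-0.62 ± 0.22) passed the test, and Peg3 had -0.70 ± 0.28 with an edgeR adjusted p = 0.0749. In LP mice alone, Igf2r (1.46 ± 0.29) and Cdkn1c (-0.86 ± 0.22) passed, Plagl1 had -0.50 ± 0.19 with an edgeR adjusted p = 0.0837, and Peg3 had -0.41 ± 0.24 with an edgeR adjusted p = 0.271. Without LP female 1, LP female 2, and NP female 3, Igf2r was at 1.27 ± 0.12, Cdkn1c at -0.96 ± 0.18, and Plagl1 at -0.74 ± 0.15, all past the threshold. Peg3 kept a similar size with fewer mice and lost the call: it had -0.54 ± 0.21 without those 3 (edgeR adjusted p = 0.0526), -0.46 ± 0.20 without NP female 2 (0.07), and -0.49 ± 0.29 without the 6 libraries with adipocyte markers (0.248). It kept the call in 17 of the 18 fits that left out 1 mouse.

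The ranges of several marker sums were shifted between the sexes, although those given here overlap and were not tested. The summed level of 7 podocyte markers was 167 to 283 CPM in males and 280 to 589 CPM in females, and all 7 were detected. The summed markers of the inner medulla were 23.9 to 153 CPM in males and 106 to 384 CPM in females, and those of the thick ascending limb were 2040 to 4130 CPM in males and 2250 to 7710 CPM in females. The proximal tubule sum was 10600 to 13200 CPM in males and 6930 to 11800 CPM in females, but its genes did not all shift alike, in reads not scaled for depth. Slc22a6 had 23427 to 49153 reads in males and 6593 to 13077 in females, and Slc34a1 had 86042 to 138166 and 54873 to 124728. Lrp2 had 23228 to 53624 in males and 21967 to 92625 in females. Slc5a2, Slc5a12, and Cubn likewise had both a lower minimum and a higher maximum in females, so that these genes were more spread there. The skeletal muscle sum was 0 to 1.07 CPM in males and 0.658 to 11.3 CPM in females. In females it was mostly Myh1, with 13 to 229 reads. Acta1, Ckm, Myh4, and Tnnt3 had 0 to 2 reads each there, so that the sum does not mark skeletal muscle. Principal cells of the collecting duct had 256 to 809 CPM in males and 349 to 814 CPM in females. Leukocytes had 130 to 189 CPM and 108 to 209 CPM, endothelium 169 to 395 CPM and 149 to 521 CPM. Adipocyte markers reached 94.8 CPM in males and 270 CPM in females, and urothelium markers 101 CPM and 51.8 CPM. The part of these cell types in the differences in Igf2r, Cdkn1c, Plagl1, and Peg3 was not tested.

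Promoters are shown for 3 of the 4 members called for sex, because they hold the start sites of the genes that differed between the sexes and because CG pairs are the sites of the methylation that marks imprinted genes. RefSeq gives 300 bases, 250 before and 50 after the transcription start, for 8 of the 10 members, Cdkn1c and H19 having no entry in the table used. The promoters of Igf2r (GRCm38.p6 chr17:12769657-12769956, minus strand), Plagl1 (GRCm38.p6 chr10:13090582-13090881, plus strand), and Peg3 (GRCm38.p6 chr7:6730370-6730669, minus strand) are printed 5′ to 3′, with CG in capitals.
Igf2r: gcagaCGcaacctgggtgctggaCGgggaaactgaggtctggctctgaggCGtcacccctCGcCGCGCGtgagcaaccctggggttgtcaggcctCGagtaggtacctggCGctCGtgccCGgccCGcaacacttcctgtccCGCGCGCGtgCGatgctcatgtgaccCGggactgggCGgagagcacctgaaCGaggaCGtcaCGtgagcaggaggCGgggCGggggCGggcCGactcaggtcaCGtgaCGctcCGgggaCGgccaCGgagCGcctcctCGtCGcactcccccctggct
Plagl1: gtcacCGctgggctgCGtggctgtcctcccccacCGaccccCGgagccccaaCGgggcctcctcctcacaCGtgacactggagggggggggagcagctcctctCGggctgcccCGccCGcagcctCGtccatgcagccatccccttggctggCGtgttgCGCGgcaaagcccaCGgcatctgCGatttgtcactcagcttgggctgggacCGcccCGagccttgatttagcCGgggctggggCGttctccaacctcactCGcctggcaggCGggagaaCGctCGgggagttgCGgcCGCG
Peg3: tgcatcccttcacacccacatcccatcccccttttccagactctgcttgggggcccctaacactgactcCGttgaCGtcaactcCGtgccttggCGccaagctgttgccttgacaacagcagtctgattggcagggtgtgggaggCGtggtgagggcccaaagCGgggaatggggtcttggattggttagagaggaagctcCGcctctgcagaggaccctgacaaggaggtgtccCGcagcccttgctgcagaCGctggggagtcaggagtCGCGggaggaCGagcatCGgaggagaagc
Igf2r held 34 CG pairs, Plagl1 26, and Peg3 13, beside a median of 7 over 32851 promoters of the same length. The counts were above those of 92.3%, 83.1%, and 62.1% of these promoters. The letters GGGGCCCC, the core of the site known for the PLAGL1 protein and the same on both strands, were found in 1 of the 13 promoters of the members, that of Peg3, starting 201 bases before the transcription start, and in 1.08% of all promoters. Methylation and binding were not measured here.

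For the 5 members counted in all 18 libraries, log2(CPM + 1) was compared in deviation from the group means. The highest Pearson correlation between them was that of Peg3 and Grb10 (r = 0.838), and Igf2r and Plagl1 had r = 0.596, while Igf2r and Cdkn1c had r = -0.298. Among 12664 other genes, those most like Igf2r were Cers6 (r = 0.94), Lrp2, which encodes the endocytic receptor megalin of the proximal tubule (r = 0.939), and Col4a2 (r = 0.926). For Cdkn1c they were Abtb1 (r = 0.889), Ranbp1 (r = 0.862), and Syngr1 (r = 0.843). Grb10 was most like Mtmr12 (r = 0.943), Bnc2 (r = 0.932), and Zfp12 (r = 0.93), and Plagl1 was most like Hapstr1 (r = 0.932), Atf7ip (r = 0.924), and Ripor1 (r = 0.915). The genes most like Peg3 were Dennd11 (r = 0.854), Rfx3 (r = 0.854), and Nsd2 (r = 0.848). Among females, Igf2r and Lrp2 were both lowest in LP female 1, LP female 2, and NP female 3, the libraries that separated first. Igf2r had 553 to 894 reads there and 1133 to 2211 in the other females, and Lrp2 had 21967 to 26208 and 39381 to 92625. The part of these libraries in the correlation was not tested. The points share libraries, depth, and tissue piece, and each gene was the highest of many, so that these values describe these kidneys.

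Of 53 other imprinted genes, 27 could be tested in males, 28 in females, and 26 across the sexes. None passed the test for diet in males, for diet in females, or for the interaction (edgeR), and 1 gene in each had an unadjusted p under 0.05, against 3.84%, 4.17%, and 4.02% of all genes. In males the smallest p-values were those of Gatm, an enzyme of creatine synthesis (log2 fold change 0.82, LP minus NP, edgeR adjusted p = 1), Gnas (-0.10), and Ddc (0.20). In females they were those of Inpp5f, a phosphoinositide phosphatase (0.42, edgeR adjusted p = 0.886), Ddc (0.67), and Copg2 (0.30). For the interaction they were Inpp5f (0.49, edgeR adjusted p = 0.977), Copg2 (0.25), and Atp10a (-0.95). The median log2 fold change was 0.0201 in males and -0.0251 in females, beside -0.00393 and -0.0132 over all genes.

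Between the sexes, 14 of the 26 other imprinted genes passed the test, against 38.7% of all genes, 9 higher in males and 5 higher in females. On the Igf2r locus, the antisense noncoding RNA Airn (log2 fold change 2.28 ± 0.35, male minus female) and the organic cation transporter gene Slc22a2 (1.46 ± 0.13) were higher in males, as Igf2r was. Airn shares no exon base with Igf2r, but without strand its reads cannot be told apart from unspliced Igf2r RNA where it lies in introns of Igf2r. On the Cdkn1c locus, the potassium channel gene Kcnq1 (-0.81 ± 0.11), its antisense RNA Kcnq1ot1 (-0.69 ± 0.20), and Osbpl5 (-0.71 ± 0.15) were higher in females, as Cdkn1c was, and Slc22a18 (0.49 ± 0.14) was higher in males. Phlda2 (0.36), Cd81 (-0.07), Tssc4 (-0.29), and Nap1l4 (-0.06) of that locus did not pass the test. Trappc9 (0.93), Inpp5f (0.48), Pon2 (0.44), Tfpi2 (0.61), Snrpn (0.49), and Mcts2 (0.40) were also higher in males, and Ddc (-1.19) and Gatm (-0.89) were higher in females. The median over the 26 genes was -0.00862, beside -0.0506 over all genes.

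Of 23 partners in IGF and growth signalling, 18 were tested in males, 19 in females, and 18 across the sexes, and none passed the test for diet or for the interaction (edgeR). In males, Igfbp1, an IGF binding protein, had a log2 fold change of 2.32 ± 0.78 (LP minus NP, edgeR adjusted p = 1), the only partner with an unadjusted p under 0.05, followed by Cdkn1b (0.20) and Igfbp4 (-0.16). In females the smallest p-values were those of Igf1 (-1.04, edgeR adjusted p = 0.886), Igfbp1 (1.23), and Igfbp7 (0.20), and for the interaction those of Igf1 (-0.75), Trim28 (-0.13), and Igfbp1 (-1.11). Between the sexes 8 of 18 partners passed, against 38.7% of all genes. Higher in males were M6pr, the other mannose 6-phosphate receptor (0.44 ± 0.06), and Igf2bp1, which binds Igf2 mRNA (1.14 ± 0.27). Higher in females were the ligand gene Igf1 (-1.48 ± 0.35), the binding protein genes Igfbp1 (-1.91 ± 0.57) and Igfbp7 (-0.59 ± 0.07), the adaptor gene Irs1 (-0.56 ± 0.18), the cell cycle inhibitor gene Cdkn1b (-0.41 ± 0.08), and Trim28 (-0.18 ± 0.07), a cofactor that keeps imprints in the embryo.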

How the data were processed

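Bulk RNA-seq was performed on a piece of the left kidney of 18 mice, with poly(A) selection and non-directional libraries. The authors deposited raw counts per gene for each mouse, from reads aligned to GRCm39 with STAR (version not given in the sources used here) and GENCODE vM36. Poly(A) selection disfavours RNA without a tail, and reads shared by 2 genes were not counted. The column counted without strand was used, and totals of unassigned reads were left out. Samples were grouped by GEO's labels for diet and sex. Identifiers were named from the vM39 annotation, which matched 78168 of 78239 genes and also gave coordinates and exon lengths.

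LP and NP were compared within sex in edgeR (4.0.16, run in R 4.3.3) by its quasi-likelihood test, with TMM normalisation, a minimum of 10 counts in each library fitted, and Benjamini-Hochberg adjustment over all genes kept, with a threshold of 0.05. Sex and the diet by sex interaction were fitted over the 4 groups. The SE given with an edgeR log2 fold change is its absolute value divided by the square root of the test's F statistic. For single members, an exact two-sided permutation test of mean log2(CPM + 1) was run within sex. Normalised counts were scaled by the size factors of DESeq2 1.42.0, whose Wald test was an alternative. The fits were also run on simulated counts with 200 changed genes. These counts were drawn independently, without litters or libraries that stand apart, and no result given here rests on them. The other alternatives are given under the dependence on processing.

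The members and the lists were chosen with earlier results of these data known, and the neuron list was added after the counts were seen. Named genes are the 10 members, list genes with an adjusted p under 0.05 or among the 3 smallest p-values of a comparison, the 3 genes most like each member counted in all libraries, and markers that set a library apart. Gm44732, Gm49394, Rian, Rasgrf1, Phlda2, Cd81, Tssc4, Nap1l4, and single markers of the proximal tubule and skeletal muscle lists were named after their values were seen. Of the 53 other imprinted genes, 51 were matched by name. Promoters are from RefSeq (GRCm38.p6).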

Additional observations from a re-analysis of the deposited data

Results flagged for a closer look

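In 30 combinations of a member and a group of 5 mice, 7 held a library far from the other 4 (Dixon's test on log2 normalised counts). The nominal rate of about 1 in 20 does not hold for counts near 0. A single library with a read is always flagged where the other 4 have 0, as for Dlk1 and the last 3 below. The count of 7 is therefore not set against that rate. Dlk1 had 22.5 normalised counts in LP female 5 and 0 in the other LP females, and Meg3 had 33 in that library against 4.69 to 7.09 in the others. LP female 5 also had the highest adipocyte marker sum, 270 CPM, whose part in these values was not tested. Peg3 had 77 normalised counts in NP male 5, against 161 to 196 in the other NP males. Ndn had 5.84 in NP male 4, against 26.6 to 40 in the others. The remaining 3 rest on 1 or 2 reads: Igf2 in LP male 5 (0.944 normalised counts) and NP male 2 (1.04), and H19 in NP male 5 (2).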

How the results depend on the processing

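No member was called for diet or for the interaction under any alternative of the edgeR and DESeq2 fits, though DESeq2 gave no adjusted p for 4 of the 5 members in the interaction. Counts of all genes called moved by more than 1.5 times as follows. For diet in males, the count of 5 became 19 with DESeq2, 9 with no filter, 1 with all 4 groups in 1 model, and 3 without the adipocyte libraries, an alternative chosen after seeing the data. For diet in females, 0 became 9 with DESeq2, 3 with no filter, 2 with all 4 groups in 1 model, 1 without the 3 libraries that separated first, and 1 without the adipocyte libraries. For the interaction, 2 became 4 with DESeq2 and 0 with the stranded sum, without the 3 libraries, and without the adipocyte libraries. For sex, 4900 became 3087 in NP mice, 2344 in LP mice, and 2884 without the adipocyte libraries, where fewer mice were fitted, and 2 members were called in LP mice. With filterByExpr and with no filter, 5 members were called for sex, Igf2 being added (edgeR adjusted p = 0.00966 and 0.0077). Igf2 had at least 10 reads in LP females 3, 4, and 5 alone, and passed filterByExpr only through these. NP females had 0 to 3 reads of Igf2 and males 0 to 1. The added call thus rests on LP females and is no support for a sex difference in Igf2.

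The same replicate numbers occur in each group, but 1 of 5 numbers in males and 0 of 3 in females had a correlation of deviations above 0.1, and 2 of 10 male and 0 of 6 female libraries were most like the library of their own number. With a replicate block, the count for diet was 2 genes in males and 0 in females, the interaction count was 0, and the 4 members for sex stayed called. In females the block reversed Igf2r (-0.36), Grb10 (0.14), and Plagl1 (-0.022), none past the threshold.

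Leaving out each mouse in turn gave 2 to 6 genes called for diet in males, 0 to 2 genes in females, 0 to 4 genes for the interaction, and 3 to 4 members for sex. The count of members with a permutation p under 0.05 ranged from 0 to 2 in males and from 0 to 1 in females. Meg3 in males lost its p under 0.05 in 6 of 10 such settings (LP male 2 and each NP male). Scaling by TMM or a pseudocount of 0.1 left the count at 1 in males and 0 in females. The uncalled diet effects in females that changed sign were Igf2r (-0.085 to 0.41), Grb10 (-0.11 to 0.14), Plagl1 (-0.065 to 0.20), and Ndn (-0.40 to 0.12). On log2(CPM + 1) in females they were Igf2r (-0.28 to 0.33), Dlk1 (-0.40 to 0.20), Grb10 (-0.10 to 0.14), Plagl1 (-0.12 to 0.20), and Ndn (-0.29 to 0.054), and in males Igf2 (-0.017 to 0.015) and Dlk1 (-0.055 to 0.10). The female diet effect of Grb10 was also reversed with no filter (0.036), filterByExpr (0.015), and without the adipocyte libraries (0.28). That of Igf2r (-0.054), Plagl1 (-0.16), and Ndn (0.22) was reversed without the adipocyte libraries, and Ndn (0.075) without the 3 libraries. The cause was not tested. With 3 NP females, and with few reads of Igf2, H19, and Dlk1, differences in females could be missed.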
